A study of Rattus norvegicus with 12 samples.

Results

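The CCN family is a small set of secreted matricellular proteins, and 5 of its members, Ccn1 to Ccn5, are described here. They were chosen by name, as every probe set whose only gene symbol is one of these 5. Ccn6, a further family gene on the arrays, was not among them and is given apart. Each of the 5 was measured by 1 probe set, so 5 probe sets were described out of 31042, and 5 genes out of 14217. Cells of F111, an established fibroblast line from the Fischer strain of rat, were compared in 2 states after 16 h in the same serum-containing medium. NA16 cells had been detached with trypsin and kept in suspension over agarose, and A16 cells had been detached in the same way and replated on uncoated plastic. Both states therefore carry a replating, neither carries a transgene or a drug, and the line stands for 1 fibroblast origin only. In the study's own viability assay most F111 cells held over agarose for this time no longer scored as viable. The arrays do not separate living from dying cells, so every NA16 value below is that of the whole suspended culture.

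CCN proteins are built from the same kinds of module, which resemble insulin-like growth factor binding proteins (IGFBP), von Willebrand factor type C domains (VWC), thrombospondin repeats and a cystine knot, the last of which CCN5 lacks. They bind integrins, proteoglycans and growth factors rather than forming fibres, and in fibroblasts they are known for roles in adhesion, survival and scar formation. Ccn1 and Ccn2 are textbook targets of the adhesion-sensing co-activators YAP and TAZ, which act through TEAD factors, of serum response factor with its actin-regulated partners, and of the growth factor TGF-beta through SMAD factors.

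The promoters of Ccn1 and Ccn2 are shown because TEAD factors are known to act there and both genes were lower in suspension. RefSeq promoter sequences of the GRCr8 assembly were at hand for 2 of the 5 members. Each run is the 250 bases before the start of the gene, 5′ to 3′ on the strand of the gene, and capitals mark the TEAD hexamer GGAATG or its reverse complement CATTCC.
Ccn1 (chr2:237225690-237225939, minus strand): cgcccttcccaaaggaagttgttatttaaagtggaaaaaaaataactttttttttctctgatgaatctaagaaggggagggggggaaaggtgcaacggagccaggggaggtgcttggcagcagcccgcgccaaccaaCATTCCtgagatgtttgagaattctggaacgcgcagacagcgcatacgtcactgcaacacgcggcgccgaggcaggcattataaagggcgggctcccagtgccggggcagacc
Ccn2 (chr1:22624615-22624864, minus strand): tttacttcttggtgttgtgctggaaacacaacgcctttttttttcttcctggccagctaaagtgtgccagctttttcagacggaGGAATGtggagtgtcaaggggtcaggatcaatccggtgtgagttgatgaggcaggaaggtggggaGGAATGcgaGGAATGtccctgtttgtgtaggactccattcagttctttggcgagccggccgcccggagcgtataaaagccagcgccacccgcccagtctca
Ccn2 held 3 of these hexamers, at −166 to −161, −101 to −96 and −92 to −87 counted back from the start. Ccn1 held 1, on the opposite strand, at −113 to −108. At least 1 such hexamer stood in 12.1% of the 33469 promoters in the table, and 3 or more stood in 0.0807%. The SMAD box CAGAC occurred 1 time before Ccn2 (−174 to −170) and 2 times before Ccn1 (−80 to −76 and −6 to −2), and in 42.9% of all promoters. A TATA box, TATAAA, lay at −31 to −26 before Ccn2 and at −34 to −29 before Ccn1, and in 12.9% of all promoters. The AP-1 motif TGANTCA (6.34% of all promoters) and the CArG box (1.5%) had 0 matches in both windows. All motifs were searched on both strands, and no match overlapped another; such a match is a string of letters and not a measured binding site.

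Each state was profiled on 3 Affymetrix rat arrays, and every array was deposited as an RMA and as a PLIER column of linear intensities, 2 ways of summarising the same probes. Values below are log2 of the RMA intensity, and a change is the NA16 mean minus the A16 mean. Median RMA intensities lay between 153 and 158 on all 6 arrays. The arrays of a state are biological replicate 1, biological replicate 2 and technical replicate 2, in that order wherever array values are listed. The labels point to biological replicate 1 as the source of the technical array, which was averaged with it to give n = 2 replicates per state. The values go with that in A16, where the technical array differed by a median of 0.109 from biological replicate 1 and of 0.158 from biological replicate 2, and against it in NA16, with medians of 0.171 and 0.0989. Results that rest on that array are given with it and without it. The labels do not tell whether biological replicates were separate cultures, so the p-values refer to the spread between these arrays, part of which can be technical. Fewer cells expressing a gene and less of its RNA per cell cannot be told apart in such bulk RNA.

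The CCN genes split in suspension. Ccn2, Ccn4 and Ccn1 fell 32.6-fold, 7.09-fold and 3.09-fold, while Ccn3 and Ccn5 were 1.29-fold and 1.35-fold higher by calls that did not withstand most changes of processing for Ccn3 and many for Ccn5. By limma with Benjamini-Hochberg adjustment over all 14217 genes, 5 of 5 members passed an adjusted p of 0.05, 3 lower and 2 higher, where 38.9% of all genes passed, 16.9% lower and 21.9% higher. A call by itself was thus common. A called fall of at least 2-fold was less so, with 3 of 5 members and 6.12% of all genes. The members were chosen with earlier results of these data known, so such shares are a description and not a test. On RMA values the NA16 and A16 arrays did not overlap for 5 of 5 members, against 51.7% of all genes (23.9% lower, 27.8% higher). Ccn6, the family gene outside the 5, was not called and its arrays overlapped. Adjusted over all probe sets in place of genes, 4 of 5 members were called, without Ccn3, where 27.5% of probe sets were. The median change of all genes was 0.01, with quartiles of -0.21 and 0.34.

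**Figure D1:**
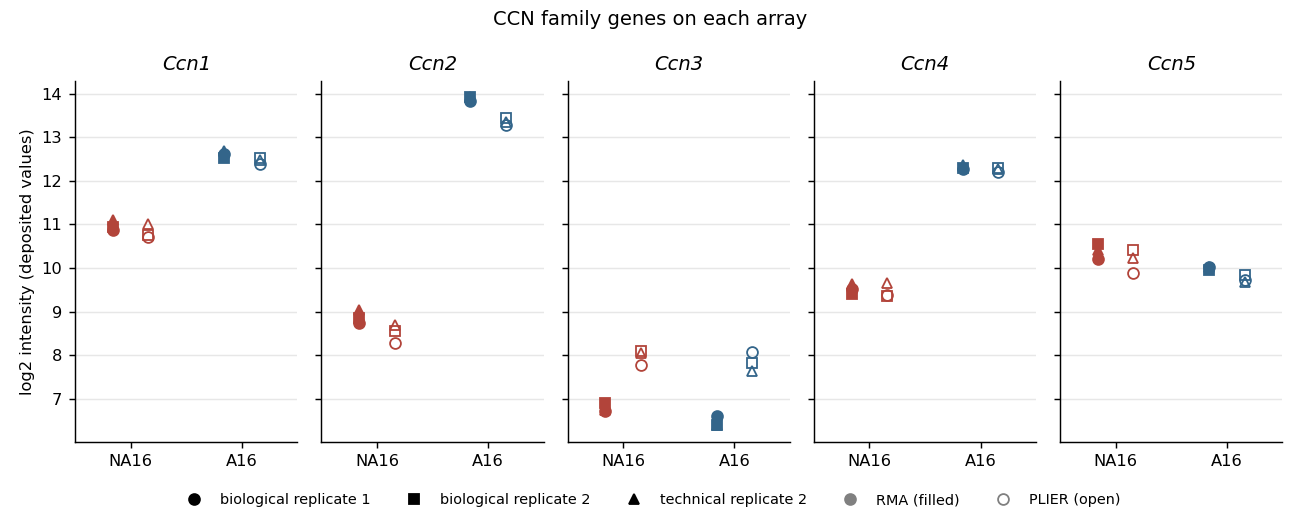
Log2 intensity (y axis) of Ccn1 to Ccn5 on each NA16 (left) and A16 (right) array, by RMA (filled) and PLIER (open); circles, squares and triangles are biological replicate 1, biological replicate 2 and technical replicate 2. NA16 arrays lie far below A16 arrays for Ccn2 (8.73 to 9.03 against 13.83 to 13.92, RMA), and the PLIER values of Ccn3 overlap.

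Ccn2 encodes connective tissue growth factor, a matrix-bound protein best known for its part in fibrosis (older symbol Ctgf; chr1:22621498-22624614, GRCr8). It read 8.73, 8.85 and 9.03 on the NA16 arrays, against 13.83, 13.92 and 13.92 on the A16 arrays. All NA16 arrays were thus far below all A16 arrays, and the spread within a state was small beside the gap. On the linear scale these are intensities of 425, 463 and 523 in NA16 and of 14588, 15457 and 15457 in A16. The means were 8.87 ± 0.02 in NA16 and 13.90 ± 0.03 in A16 (SD, n = 2 each), a change of -5.03 (95% interval -5.29 to -4.77) with a limma adjusted p of 7.222e-06. No other of the 14217 genes had a lower value of the change. With the technical arrays left out the change was -5.08, and in the PLIER columns, at 8.29, 8.55 and 8.69 in NA16 and 13.27, 13.44 and 13.36 in A16, it was -4.86. The highest probe sets of the arrays read 14.91 to 15.02, above Ccn2 in A16; saturation of its single probes was not tested.

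Ccn4 encodes a family member first described as a target of WNT1 in mouse cells (older symbol Wisp1; chr7:100534578-100566287, GRCr8). Its values were 9.51, 9.41 and 9.63 in NA16 and 12.28, 12.30 and 12.37 in A16. Again no array of one state came near those of the other. The means of 9.49 ± 0.11 in NA16 and 12.32 ± 0.02 in A16 (SD, n = 2 each) gave a change of -2.83 (95% interval -3.10 to -2.55; limma adjusted p = 3.09e-05), which ranked 11 among the falls. With the technical arrays left out it was again -2.83 (limma adjusted p = 0.000264). The PLIER columns gave -2.82, from 9.39, 9.37 and 9.66 in NA16 and 12.22, 12.29 and 12.28 in A16.

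Ccn1 encodes an angiogenic, adhesion-promoting CCN protein and is an immediate-early gene of serum-stimulated fibroblasts (older symbol Cyr61; chr2:237222730-237225689, GRCr8). It read 10.87, 10.94 and 11.11 in NA16, against 12.61, 12.53 and 12.69 in A16. The gap between the states was several times the spread within either. The means were 10.96 ± 0.04 in NA16 and 12.59 ± 0.08 in A16 (SD, n = 2 each), a change of -1.63 (95% interval -1.90 to -1.36; limma adjusted p = 0.0001119), which ranked 215 among the falls. It was -1.67 with the technical arrays left out (limma adjusted p = 0.000704). By PLIER it was -1.65, and the arrays read 10.72, 10.77 and 11.02 in NA16 and 12.38, 12.51 and 12.48 in A16.

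The 3 genes that fell did so to unlike extents. Their 95% intervals did not overlap, and the change of Ccn2 minus that of Ccn4 was -2.20 on the log2 scale. The change of Ccn1 lay 3.40 above that of Ccn2 and 1.20 above that of Ccn4. These differences between genes were not tested themselves, and a level of one probe set is not comparable with that of another.

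Ccn5 encodes the member without the cystine knot, known to restrain proliferation of smooth muscle cells (older symbol Wisp2; chr3:172910670-172922064, GRCr8). It read 10.20, 10.54 and 10.41 in NA16 and 10.01, 9.96 and 10.02 in A16. All 3 NA16 arrays were above all 3 A16 arrays, a pattern that 27.8% of all genes shared. The means were 10.42 ± 0.17 in NA16 and 9.99 ± 0.04 in A16 (SD, n = 2 each), a change of 0.43 (95% interval 0.13 to 0.74; limma adjusted p = 0.03358). The PLIER arrays did not overlap either, at 9.90, 10.41 and 10.22 in NA16 and 9.72, 9.83 and 9.68 in A16, but their change of 0.47 had an adjusted p of 0.0635 by limma. The limma call was also lost with the technical arrays left out (0.38, adjusted p = 0.142), without NA16 replicate 2 (0.31, adjusted p = 0.332), without A16 replicate 1 (0.46, adjusted p = 0.0857) and without A16 replicate 2 (0.40, adjusted p = 0.126).

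Ccn3 encodes a growth-restraining member first found at a virus integration site in chicken kidney tumours (older symbol Nov; chr7:87983788-87990810, GRCr8). Its RMA values were 6.71, 6.90 and 6.75 in NA16 and 6.60, 6.40 and 6.39 in A16, which do not overlap. Its PLIER values were 7.77, 8.10 and 8.05 in NA16 and 8.07, 7.81 and 7.64 in A16, which do. The RMA means were 6.81 ± 0.12 in NA16 and 6.45 ± 0.07 in A16 (SD, n = 2 each), a change of 0.37 (95% interval 0.08 to 0.65) whose limma adjusted p of 0.04998 stood at the threshold. The PLIER change was 0.17 with a limma adjusted p of 0.382, and with the technical arrays left out the RMA change was 0.31 (adjusted p = 0.205). Leaving out A16 replicate 1 (0.42), A16 replicate 2 (0.32), NA16 replicate 1 (0.45) or NA16 replicate 2 (0.28) lost the call each time. Linear intensities of 105, 119 and 107 in NA16 and of 97.1, 84.2 and 83.9 in A16 are not far above the constant of about 16 that the deposited values appear to carry, which understates changes of dim probe sets.

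Ccn6, the remaining mammalian relative, is not among these 5. It had a change of -0.13 with a limma adjusted p of 0.5171, and its arrays overlapped.

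**Figure D2:**
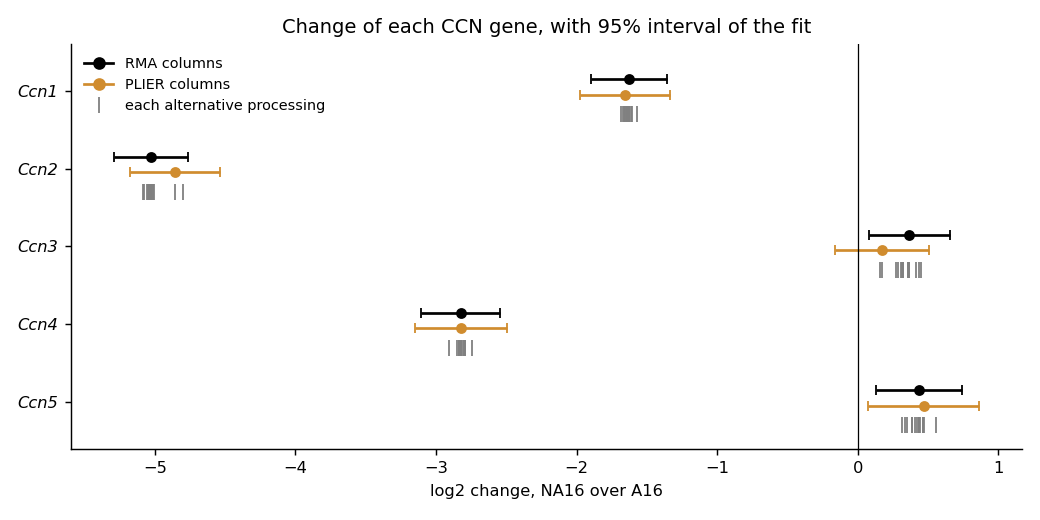
Log2 change, NA16 over A16 (x axis), of each CCN gene (y axis) in the RMA (black) and PLIER (orange) columns, with the 95% interval of the limma fit; grey ticks are the changes under each alternative processing. Ccn2 (-5.03), Ccn4 (-2.83) and Ccn1 (-1.63) stay far left of 0 throughout, and the PLIER interval of Ccn3 crosses 0.

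**Figure D3:**
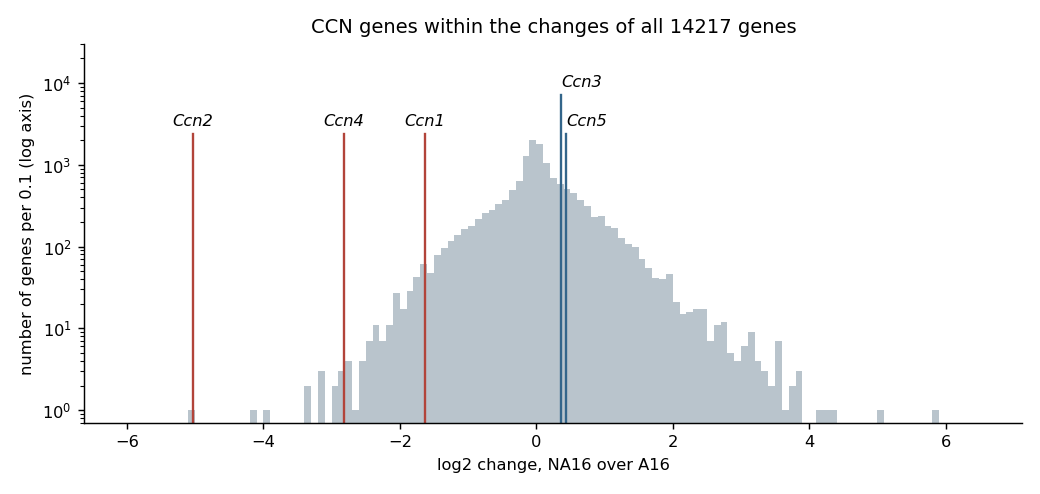
Number of genes per 0.1 of log2 change, NA16 over A16 (x axis; log y axis), for all 14217 genes, with the 5 CCN genes as vertical lines. Ccn2 stands at the lower end at -5.03, Ccn4 (-2.83) and Ccn1 (-1.63) in the lower tail, and Ccn3 (0.37) and Ccn5 (0.43) within the bulk.

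RNA quality and cell type markers were read beside these changes. The beta-actin control probe sets, set 3′ minus 5′, gave 0.93, 0.87 and 0.87 in NA16 and 0.39, 0.37 and 0.44 in A16, while those of Gapdh gave -0.03, 0.06 and -0.02 in NA16 and -0.07, 0.00 and -0.05 in A16. The actin difference was thus larger on all NA16 arrays than on any A16 array. The Gapdh probe sets read 14.45 to 14.82, close to the highest values of the arrays, and so did the actin probe sets in A16 (14.04 to 14.70), where differences can be compressed. The part of RNA quality in the CCN changes was not tested. The fibroblast label was checked on a list of markers given below, in which the type I collagen genes were bright. Col1a1 read 14.28 ± 0.42 and Col1a2 14.29 ± 0.22 in NA16 (SD, n = 2 each). In A16 they read 14.60 ± 0.39 and 14.52 ± 0.17 (SD, n = 2 each), again near the top of the scale. Among all genes 21.9% were called higher and 16.9% lower, which stands beside each marker count below. The shares of higher calls among macrophage and epithelial markers are near the first of these. Of 11 fibroblast markers, 5 were called higher and 0 lower (median 0.47). Among them Pdgfrb changed by 1.40, or by 0.58 for the mean of its probe sets, Lum by 1.15, Pdgfra by 0.78 and Dcn by 0.58. Col1a1 (-0.32), Col1a2 (-0.23) and S100a4 (-0.29) were not called. Macrophage markers had 2 of 10 higher, Cd68 by 1.46 and Lyz2 by 1.15, and 0 lower. In the PLIER columns Cd68 changed by 2.11 and Lyz2 by 0.63. The summed linear intensity of the macrophage list, 2095 to 2394 in NA16 and 2050 to 2337 in A16, also holds Cd14 (-0.35, not called). Epithelial markers had 2 of 9 higher, Krt8 by 1.26 and Epcam by 0.54, and 0 lower, with summed intensities of 2978 to 3427 in NA16 and 1532 to 1716 in A16. Krt8 averaged 11.38 in NA16 and 10.12 in A16 and makes up most of these sums. The next brightest epithelial marker was Ocln in NA16 (6.92) and Krt5 in A16 (6.62). Krt18 (-0.24) and Krt5 (-0.22) were not called. Epcam changed by 1.11 in the PLIER columns and lost its call without A16 replicate 1 (0.49), A16 replicate 2 (0.58) or NA16 replicate 1 (0.37). Of 6 endothelial markers Pecam1 was higher by 0.48 (1.43 by PLIER) and Egfl7 changed by -0.37, with summed intensities of 766 to 823 in NA16 and 858 to 956 in A16. Both calls were lost with the technical arrays left out (Pecam1 0.37, Egfl7 -0.42), without A16 replicate 2 (0.44 and -0.43), without NA16 replicate 1 (0.46 and -0.36) and without NA16 replicate 2 (0.50 and -0.39), and that of Egfl7 also without A16 replicate 1 (-0.31). The part of these markers in the CCN changes was not tested, and absence of a marker was not read from these values, which appear to carry a constant.

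Of 15 measured genes for the cell-surface receptors and co-receptors through which CCN proteins act, 3 were lower and 3 higher, with a median change of -0.04. These counts are near the shares among all genes (16.9% lower, 21.9% higher). Itga6, a laminin-binding integrin chain that also binds CCN1, read 9.36, 9.06 and 9.13 in NA16 and 11.01, 10.80 and 10.82 in A16, a change of -1.70 (limma adjusted p = 0.0001234). Its partner chain Itgb1 changed by -0.56 (adjusted p = 0.008244), a limma call lost without NA16 replicate 2 (-0.49). Lrp1, an endocytic receptor that takes up CCN2, was higher, at 11.91, 12.60 and 12.48 in NA16 and 11.34, 11.38 and 11.83 in A16, a change of 0.91 by its brightest probe set and of 0.40 by the mean of its probe sets. Sdc4, a heparan sulfate co-receptor, changed by 0.57 with a limma adjusted p of 0.04362, a call lost in 9 of 19 alternatives, among them the PLIER columns (0.50), the technical arrays left out (0.58) and the fits without A16 replicate 1 (0.47), A16 replicate 2 (0.67) or NA16 replicate 2 (0.33). Among 10 proteins that CCN proteins bind, Vegfa and the proteoglycan gene Dcn were higher and 0 were lower (median 0.05). The call of Dcn (0.58) was lost with the technical arrays left out (0.68) and without A16 replicate 1 (0.70), A16 replicate 2 (0.47) or NA16 replicate 1 (0.33). Vegfa, the angiogenic factor that CCN2 can hold, read 12.03, 12.42 and 12.37 in NA16 and 9.95, 10.35 and 10.20 in A16, a change of 2.09 (limma adjusted p = 0.0001095). The study itself lists Vegfa in NA16 as lower on the array and higher by qPCR. Fn1, the fibronectin gene, changed by -0.09 and Tgfb1 by -0.01, and neither was called.

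Of 20 transcription factors and co-activators reported to act on CCN genes 3 were lower and 6 higher (median 0.14), against 16.9% lower and 21.9% higher among all genes. The largest changes among them were rises of Fos and Egr1, immediate-early genes for transcription factors that serum induces. Fos read 13.58, 13.33 and 13.40 in NA16 and 9.87, 9.96 and 9.80 in A16, a change of 3.51, or 1.72 by the mean of its probe sets. Egr1 read 13.23, 13.10 and 13.09 in NA16 and 10.71, 11.07 and 10.90 in A16, a change of 2.19 (limma adjusted p = 7.443e-05). Fos and Egr1 thus moved opposite to Ccn1, itself an immediate-early gene. In the TEAD branch, Tead4 read 7.25, 7.65 and 7.61 in NA16 and 8.27, 8.47 and 8.24 in A16, a change of -0.82 (limma adjusted p = 0.003198), or of -0.48 for the mean of its probe sets. Tead2 (0.16) and Tead3 (0.39) were not called. Tead1 (-0.62), the actin-regulated co-activator Mrtfa (-0.78) and Wwtr1, which encodes TAZ (0.77), were called too, and are named after their values were seen; the call of Mrtfa was lost with the technical arrays left out (-0.82) and without A16 replicate 1 (-0.76), A16 replicate 2 (-0.80) or NA16 replicate 1 (-0.49). That of Tead1 was lost without A16 replicate 2 (-0.57) or NA16 replicate 1 (-0.48). Smad3, a mediator of TGF-beta signals, changed by 0.90, or by 0.51 with a limma adjusted p of 0.122 for the mean of its probe sets. Yap1 and Mrtfb had no probe set with a single symbol.

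Among 15 extracellular inducers and their receptors 4 were lower and 1 higher (median -0.06), against 16.9% lower and 21.9% higher among all genes. Edn1, the endothelin precursor gene and an inducer of CCN2 in fibroblasts, read 6.75, 6.46 and 6.58 in NA16 and 7.99, 7.95 and 7.81 in A16, a change of -1.36 (limma adjusted p = 0.0002615). Tgfb2 changed by -0.72 and the thrombin receptor gene F2r by -0.84. Lpar1, a receptor for lysophosphatidic acid, was the member that rose, with 9.95, 9.85 and 9.69 in NA16 and 8.76, 8.62 and 8.52 in A16 (1.21; limma adjusted p = 0.0002615). Genes that dampen TGF-beta or Hippo output, many of them induced by those pathways themselves, had 6 of 16 lower and 2 higher (median -0.35). The same shares of all genes stand beside these counts. Activity of these pathways was not measured. Pmepa1, a TGF-beta feedback gene, read 7.45, 8.44 and 7.98 in NA16 and 11.74, 12.39 and 11.63 in A16, a change of -3.96 (limma adjusted p = 0.0001342). The inhibitory SMAD gene Smad7 changed by -1.17, a call lost with the technical arrays left out. Amotl2, which restrains YAP, changed by -1.07. Stk3, a Hippo kinase gene, was higher by 1.02.

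Beside the 16.9% of all genes that were lower and the 21.9% that were higher, 19 other matricellular genes measured had 1 lower and 2 higher. Their median change was -0.02. The lower one was Fbln5, an elastic fibre protein, with 10.46, 11.04 and 10.87 in NA16 and 11.43, 11.86 and 11.54 in A16 (-0.82; limma adjusted p = 0.01016), a call lost without A16 replicate 2 (-0.63). Comp, a thrombospondin of cartilage and tendon, was higher by 0.91 (limma adjusted p = 0.0009939). Efemp2 was called higher by 0.46 although its arrays overlapped, and lost that call in 10 of 19 alternatives. The osteopontin gene Spp1 (-0.05), Sparc (-0.15) and the tenascin gene Tnc (-0.37) were not called. Several of these genes were dim already in A16, such as Efemp1 (4.70) and Tnr (5.46), where a fall would show little. Thbs1 and Tnxb were not among the measured genes.

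Among relatives that carry CCN modules, of 12 genes with the IGFBP module 1 was lower and 4 higher (median 0.11). The shares over all genes, 16.9% lower and 21.9% higher, stand beside each count here. Igfbp6 read 12.46, 12.66 and 12.70 in NA16 and 10.69, 10.58 and 10.95 in A16, a change of 1.92 (limma adjusted p = 0.0001014). Kazald1 was higher by 1.25 and Igfbp5 by 1.16, though Igfbp5 by 0.39 and uncalled for the mean of its probe sets. Crim1, a membrane protein with an IGFBP module and VWC modules, was the lower one, at 9.67, 9.96 and 10.00 in NA16 and 11.68, 11.60 and 11.58 in A16 (-1.72; limma adjusted p = 9.994e-05). Of 13 genes with the VWC module, Crim1 was lower and Chrd, the chordin gene, higher by 1.07 (median 0.03). Of 8 genes with the cystine knot, 0 were called by limma in the RMA or the PLIER columns and 0 by the methods' t-test, and 0 had an unadjusted p below 0.05 by limma; their median was -0.02.

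Of 10 matrix proteases reported to cleave CCN proteins 5 were higher and 0 lower, with a median change of 0.46. Among all genes 21.9% were higher and 16.9% lower, shares that apply to both lists of this paragraph. Mmp9, a gelatinase gene, read 8.23, 8.59 and 8.28 in NA16 and 5.94, 5.43 and 5.97 in A16, a change of 2.73 (limma adjusted p = 0.0001269). The collagenase gene Mmp13 read 11.90, 11.91 and 11.72 in NA16 and 9.71, 9.53 and 9.82 in A16, a change of 2.22 (limma adjusted p = 7.159e-05). Adamts4 was higher by 1.47 and Mmp3 by 0.80. The study itself lists Mmp3 in NA16 as changed less than 2-fold on the array and as strongly reduced by qPCR. Genes known to lie downstream of CCN2 in scar-forming fibroblasts had 3 of 8 lower and 0 higher (median -0.27). Acta2, smooth muscle actin, read 9.84, 9.66 and 9.60 in NA16 and 11.53, 12.12 and 11.15 in A16, a change of -2.04 (limma adjusted p = 0.0007123). The small falls of Timp1 (-0.42) and Lox (-0.38) lost their calls with the technical arrays left out and with any 1 replicate left out. The collagen genes Col1a1 (-0.32), Col1a2 (-0.23) and Col3a1 (0.50) were not called.

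**Figure D4:**
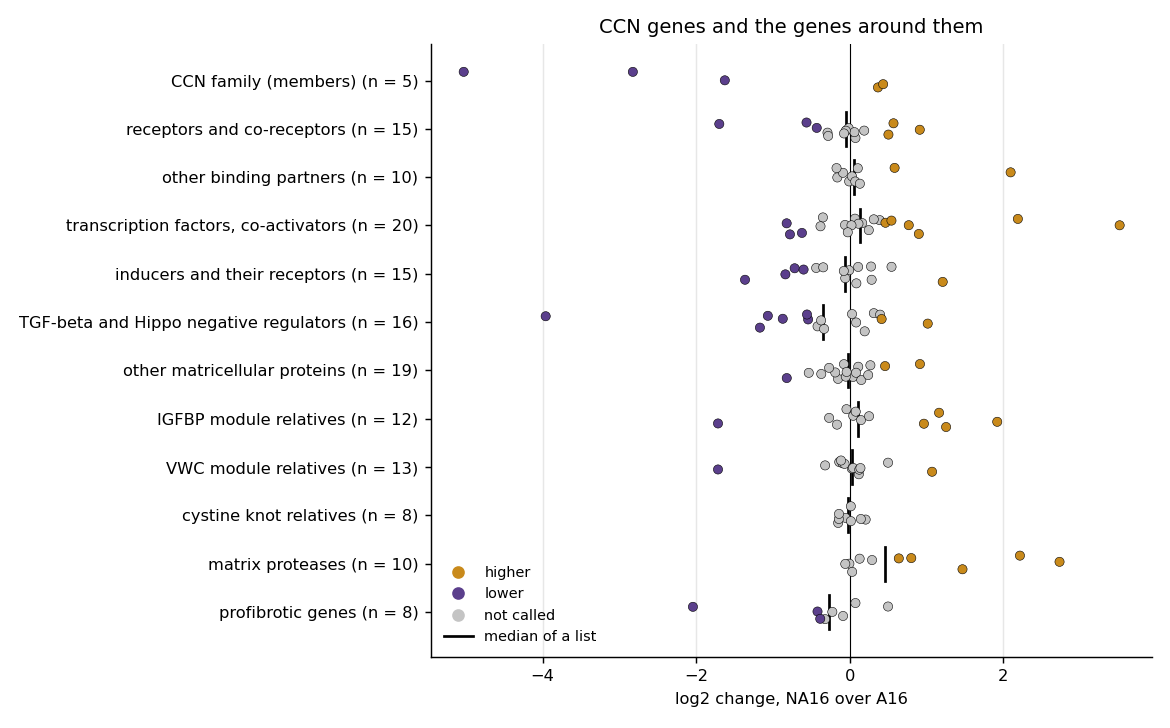
Log2 change, NA16 over A16 (x axis), of the 5 CCN genes and of the genes in 11 lists around them (y axis, n measured); points are genes, coloured by limma call, and black bars are list medians. List medians lie between -0.35 and 0.46, above the single values of Ccn2, Ccn4 and Ccn1. Some single list genes lie as low: Pmepa1 (-3.96) is below Ccn4, and Acta2 (-2.04), Crim1 (-1.72) and Itga6 (-1.70) are below Ccn1. Fos (3.51) lies highest.

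For each member, the genes most like it were taken as those with the smallest root mean square difference between array profiles, each centred on its own mean over the 6 arrays. Such likeness is a description over 6 arrays that fall into 2 states. Nearest to Ccn2 were the interleukin receptor gene Il1rl1 (difference 0.53; change -4.16) and Pmepa1 (0.63; change -3.96). The profile of Ccn4 was close to those of Fasn, the fatty acid synthase gene (0.0757; change -2.70), and of Orc1, an origin recognition gene (0.0855; change -2.81). Closest to Ccn1 were the ribosome assembly gene Tsr1 (0.0178; change -1.64) and Fdft1, the squalene synthase gene (0.0546; change -1.59). Ccn5 lay nearest to Casp9 (0.0397) and Arhgef3 (0.0434), and Ccn3 to LOC102554603 (0.0221) and Tp53i11 (0.0375), genes with changes of 0.33 to 0.44.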

How the data were processed

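Total RNA of NA16 and A16 F111 cells was labelled and hybridised to Affymetrix rat arrays. The authors normalized the arrays with RMA and PLIER, and deposited linear intensities that appear to carry a constant of about 16. PLIER was bounded at 16.0 on every array, while the lowest RMA value varied by array from 16.1 to 17.6. No source used here gives the origin of such a constant or the versions of RMA or PLIER. The 12 columns are 6 arrays, so PLIER served as a check. Detection calls were not used here, and array number limits the precision. The design assumed log2 values; log2 of each deposited intensity was taken.

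Probe sets were named from the platform annotation: 20826 had 1 symbol, 436 several and 9780 none, and 20758 of those with 1 matched RefSeq genes of GRCr8, which changed 0 symbols. The probe set of highest mean stood for each of 14217 genes. lmFit and eBayes (limma 3.58.1, R 4.3.3; 2 residual and 4.78 prior degrees of freedom) compared NA16 with A16, adjusted by Benjamini-Hochberg over all genes at 0.05. The fit was tested on simulated data. Of 182 genes in 15 lists 168 were measured.

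The members and lists were chosen with earlier results of these data known. Besides the CCN genes, the called genes of each list with the largest changes, at most 4, and the 2 nearest profiles per member were named; others are given as uncalled examples or as chosen after their values were seen. Promoter motifs were counted in the 250 bases before each start. Alternatives were the PLIER columns, the constant, scaling, the use of technical replicate 2, a replicate block, the variance model, the methods' t-test, a filter on dim genes, the choice of probe set, and each replicate left out. Identity between member proteins was not analysed here.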

Additional observations from a re-analysis of the deposited data

How the results depend on the processing

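Ccn2 kept its direction and call in 19 of 19 alternatives (log2 change -5.08 to -4.80). Ccn1 and Ccn4 did so in 18 of 19 each; by the methods' t-test on n = 2 against 2 they missed the threshold after Benjamini-Hochberg adjustment, Ccn1 (-1.63) at an adjusted p of 0.058 and Ccn4 (-2.83) at one of 0.0556. Both met the methods' own criterion of more than 2-fold change at an unadjusted p below 0.05. That test, with 2 against 2 replicates and no shared variance, called 13 genes higher and 7 lower after adjustment and 4643 at an unadjusted p below 0.05. Ccn3 lost its call in 14 of 19 alternatives, with adjusted p from 0.0175 to 0.401: in the PLIER columns (0.17), with 16 added to them (0.16), quantile normalized again or centred on the 75th percentile (0.36 each), with the technical array averaged with biological replicate 2 (0.27) or left out (0.31), by the methods' t-test, without the dimmest genes or probe set by probe set (0.37 each), and with each replicate left out (0.28 to 0.45). Ccn5 lost its call in 9 of 19, with adjusted p from 0.00877 to 0.332: in the PLIER columns (0.47), with 16 added to them (0.46), with the technical array averaged with biological replicate 2 (0.33) or left out (0.38), by the methods' t-test (0.43), and with 3 of the 4 replicates left out in turn (0.31 to 0.55 over all 4). An alternative chosen after seeing the data, in which each technical array was averaged with the biological replicate of its state nearest to it, gave 0.32 for Ccn3 and 0.35 for Ccn5, both uncalled. The cause was not tested. Directions were kept throughout. An alternative that altered only the test or the features entered could not move a change, since each member had 1 probe set. Fits without a replicate leave 1 replicate in 1 state, so their calls carry little weight.

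Tested probe set by probe set, 4098 were lower and 4429 higher, with more features tested. In the PLIER columns 4 epithelial markers and 4 VWC genes were called, against 2 each. Leaving out 1 replicate gave 2439 to 2631 genes higher and 2010 to 2078 lower. Of 1021 values for 54 other named genes, 884 kept their side of the threshold, 130 lost the call, 7 gained one and 0 reversed.

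Replicate numbers are shared between the states, but nothing says that a number marks a shared culture. Same-numbered replicates deviated together (r = 0.557 across genes, which are not independent replicates). With the replicate block 3908 genes were higher and 3111 lower, and all 5 CCN genes were called, Ccn3 with a limma adjusted p of 0.0175 and Ccn5 with one of 0.00877.

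With 16 subtracted from the RMA values Ccn3 kept its call (0.44, adjusted p = 0.0444). The number of arrays limits the precision of every change.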

Other observations

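The TEAD hexamer shown for Ccn1 and Ccn2 was also looked for before other genes. Of 11733 measured genes with a RefSeq promoter, 1302 had at least 1 hexamer, and 17.1% of these were lower and 21.2% higher in NA16, against 17.4% lower and 22.4% higher among the 10431 without one. Of the measured genes 12 genes had 3 or more, of which 5 were lower and 4 higher, counts looked at after the values were seen. Ccn2 (-5.03) is 1 of the 5 lower genes. Its change was the lowest of all 14217 genes, so it had to be the lowest of the 12 as well. The others that were lower were Il1r1 (-1.17), Lect2 (-0.998), Cnot6 (-0.92) and Wtip (-0.47). Podnl1 (1.82), C1r (0.98), Inf2 (0.79) and Zswim9 (0.50) were higher. Whether a TEAD factor binds any of these promoters was not measured.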
